A study of Homo sapiens with 6 samples.

Results

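The 33 genes described here are known targets of the hypoxia-inducible factors (HIF) that work outside glucose metabolism. They are matched by symbol from a list of HIF targets without the genes of glycolysis and glucose transport. All 33 are found among the 58395 genes of the files, and all 33 have enough reads to be tested. The cells are HCT116, an established line of human colorectal carcinoma from the colon, and RNA sequencing gives 3 libraries for each of 2 groups. Cells of the shControl group express a non-target hairpin RNA, and cells of the shSTBD1 group express a hairpin against STBD1, a glycogen-binding protein proposed as an adaptor of glycogen autophagy. Both groups thus carry a lentiviral hairpin and a drug selection, and both grow in DMEM with serum at 37°C and 5% CO2. The sources name no low-oxygen treatment and no genotype that separates the groups beyond the hairpin. A single sequence stands for each hairpin, so effects of the STBD1 hairpin, of the control hairpin and of the loss of STBD1 cannot be told apart. The labels call the replicates biological without saying whether they are separate infections. The p-values thus set the difference between groups against the spread among the 3 libraries of each group.

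HIF is a pair of proteins: an alpha subunit, HIF1A or EPAS1, and a constant partner, ARNT. In the presence of oxygen, EGLN enzymes hydroxylate the alpha subunit and VHL marks it for destruction, while in low oxygen it survives, binds short DNA elements with the core letters ACGTG or GCGTG and recruits the coactivators CREBBP and EP300. The best known targets raise glycolysis, but others control pH, collagen maturation, removal of mitochondria, blood vessel growth, histone demethylation and the stress response, and CA9 is widely used as a marker of hypoxic areas in colorectal tumors.

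STBD1 itself falls from 15.4 ± 0.904 CPM in shControl to 9.94 ± 1.43 CPM in shSTBD1 (SD, n = 3 each), a log2 fold change of -0.64 (edgeR, Benjamini-Hochberg adjusted p = 2.91e-04), so the transcript is lowered but not lost. Part of its reads is assigned with uncertainty, with a posterior standard deviation of up to 10.5% of its count. CPM are read counts relative to the size of each library, after TMM scaling for its composition. The libraries hold 17689097 to 21668274 estimated reads, and of all genes 15566 pass the filter on low counts. The summed level of 7 markers of colorectal epithelium lies between 3350 and 3590 CPM in shControl and between 3970 and 4060 CPM in shSTBD1. Of the 6 tested markers 4 are higher, against 8.22% of all tested genes, and VIL1 is under 1 CPM throughout. All 4 endothelial and all 4 immune markers are under 1 CPM in every library. The same holds for 4 of the 5 fibroblast markers, all but COL1A1, and their sum is 31.3 to 39.4 CPM in shControl and 37.3 to 40.7 CPM in shSTBD1. The part of the epithelial shift in the results below was not tested.

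Of the 33 genes, 16 are higher in shSTBD1, 4 are lower and 13 do not pass an adjusted p of 0.05 (quasi-likelihood test of edgeR, adjusted by Benjamini and Hochberg's method over all tested genes, which every adjusted p below also means unless another fit is named). The 20 that pass make up 60.6% of the list, against 15.8% of all tested genes, in a list chosen with earlier results of these data known. The 16 higher genes are 48.5% of the list, against 8.22% of all tested genes, and the 4 lower ones are 12.1%, against 7.54%. The median log2 fold change of the 33 genes is 0.17, and that of all tested genes is 0.0023. Because 31 of the 33 genes reach a mean of 5 CPM, tested genes of at least that level are the closer background: 20.5% of them pass, 10.7% as higher and 9.84% as lower. In 23 of the 33 genes (69.7%) every library of one group lies above every library of the other, against 33.6% of all tested genes. In TPM, which also account for the length of each transcript, this holds for 19 of the 33 (57.6%), against 24.4% of all tested genes. BNIP3L, INSIG2 and WSB1, which pass the test, then overlap, as do P4HA1 and ZNF395, which do not pass. FUT11, which does not pass either, separates in TPM only. Whether more cells express a gene or each cell holds more of its RNA cannot be told apart in such bulk samples.

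**Figure D1:**
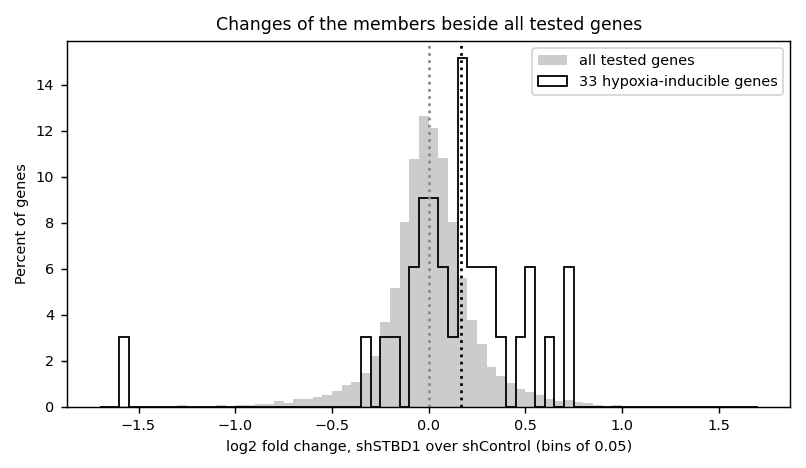
Log2 fold changes (shSTBD1 against shControl) of the 33 genes, set over the distribution of all 15566 tested genes, whose grey histogram is drawn within ±1.7. Median values are 0.17 for the 33 genes and 0.0023 for all tested genes, and 24 of the 33 lie above 0.

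The changes are small. ANKRD37 and ERO1A move most among the higher genes in the main test, by 65.6% and 65.1%. Of the 20 genes that pass, only STC1, which has few reads, moves by more than 1 on the log2 scale. A set of 9 genes passes in the main test and under all 16 alternative settings: ADM, ANGPTL4, ANKRD37, DDIT4, ERO1A, FAM162A, HILPDA and NDRG1, which are higher, and PLOD1, which is lower. The other 11 genes that pass do not pass when RSEM's effective length of each gene in each library is added to the fit, where 3.28% of all tested genes pass. All 11 keep their direction there, with edgeR adjusted p-values from 0.0658 to 0.459. In that fit CA9 has a log2 fold change of 0.46, CA12 0.36, BNIP3 0.23, INSIG2 0.20 and STC1 -1.64, all near their values without length. The values of ANKZF1, BHLHE40, BNIP3L, WSB1, PLOD2 and STC2 are closer to 0 than without length, at 0.20, 0.13, 0.11, 0.08, -0.10 and -0.10. ERO1A has 0.50 with length, below ANKRD37 at 0.695, ANGPTL4 at 0.584 and ADM at 0.523. In TPM, tested by limma on log2(TPM + 1), the same 9 genes pass, against 1.88% of all tested genes.

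**Figure D2:**
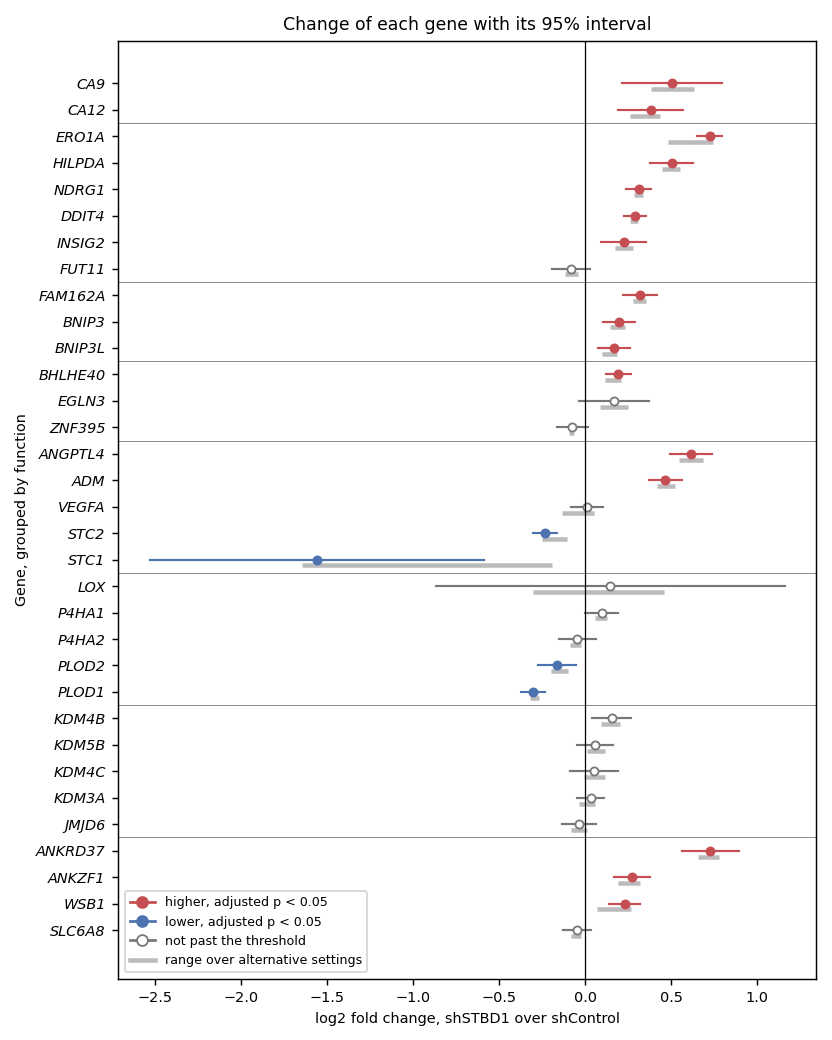
Log2 fold change of each of the 33 genes, shSTBD1 against shControl, with its 95% interval, grouped by function. ANKRD37 at 0.73 and ERO1A at 0.72 stand at the upper end, and STC1 at -1.56 has the lowest value with a wide interval.

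The DNA before the start of these genes shows how often the HIF core letters stand there, and 6 windows are given for genes that pass the test, 4 higher and 2 lower. Each runs from 250 bases before to 50 bases after the first start listed by RefSeq (GRCh38.p14), is written 5′ to 3′ on the strand of the gene, and has in capitals each ACGTG or GCGTG on either strand, so that CACGT and CACGC are the same letters on the opposite strand. The windows of ANKRD37 (chr4:185396591-185396890, plus strand), ERO1A (chr14:52695509-52695808, minus strand), ANGPTL4 (chr19:8363905-8364204, plus strand) and CA9 (chr9:35673678-35673977, plus strand) belong to higher genes. Those of PLOD1 (chr1:11934467-11934766, plus strand) and STC2 (chr5:173328365-173328664, minus strand) belong to lower ones.
ANKRD37: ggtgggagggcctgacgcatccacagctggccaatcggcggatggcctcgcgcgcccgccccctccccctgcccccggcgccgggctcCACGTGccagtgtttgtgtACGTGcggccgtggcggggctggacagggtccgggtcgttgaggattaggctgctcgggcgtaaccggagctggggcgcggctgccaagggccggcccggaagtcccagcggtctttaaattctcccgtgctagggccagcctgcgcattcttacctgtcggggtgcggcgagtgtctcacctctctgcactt
ERO1A: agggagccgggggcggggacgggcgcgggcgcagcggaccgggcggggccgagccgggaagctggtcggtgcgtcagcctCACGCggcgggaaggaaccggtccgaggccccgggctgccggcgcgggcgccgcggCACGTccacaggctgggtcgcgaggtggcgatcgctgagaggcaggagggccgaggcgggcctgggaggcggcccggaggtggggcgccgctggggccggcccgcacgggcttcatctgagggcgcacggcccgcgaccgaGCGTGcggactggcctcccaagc
ANGPTL4: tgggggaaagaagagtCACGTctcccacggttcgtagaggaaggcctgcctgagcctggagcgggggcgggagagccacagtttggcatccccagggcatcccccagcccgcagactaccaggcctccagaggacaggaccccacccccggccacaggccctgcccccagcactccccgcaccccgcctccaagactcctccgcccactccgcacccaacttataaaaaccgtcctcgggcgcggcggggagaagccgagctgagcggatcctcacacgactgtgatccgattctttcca
CA9: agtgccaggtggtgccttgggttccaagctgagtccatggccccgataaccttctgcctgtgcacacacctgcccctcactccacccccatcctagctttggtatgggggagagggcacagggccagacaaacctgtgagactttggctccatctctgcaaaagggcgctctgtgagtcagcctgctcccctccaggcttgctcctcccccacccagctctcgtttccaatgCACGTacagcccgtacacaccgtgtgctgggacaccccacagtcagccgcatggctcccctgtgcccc
PLOD1: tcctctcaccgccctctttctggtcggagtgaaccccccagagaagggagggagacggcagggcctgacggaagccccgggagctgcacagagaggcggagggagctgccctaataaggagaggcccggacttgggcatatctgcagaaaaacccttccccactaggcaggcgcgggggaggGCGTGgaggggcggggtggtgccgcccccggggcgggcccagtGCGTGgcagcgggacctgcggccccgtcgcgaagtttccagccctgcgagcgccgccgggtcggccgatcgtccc
STC2: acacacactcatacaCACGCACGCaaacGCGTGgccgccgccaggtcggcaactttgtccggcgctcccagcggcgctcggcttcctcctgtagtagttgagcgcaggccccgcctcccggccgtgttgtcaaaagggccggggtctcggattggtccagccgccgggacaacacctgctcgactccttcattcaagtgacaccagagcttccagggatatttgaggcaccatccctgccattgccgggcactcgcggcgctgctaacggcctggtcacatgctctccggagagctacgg

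ANKRD37 carries the palindrome CACGTG, which is ACGTG on both strands at once, and another ACGTG a few bases further on. ERO1A has 1 ACGTG and 2 GCGTG, CA9 has its only core, an ACGTG on the opposite strand, just before the start, and ANGPTL4 has a single ACGTG near the far end of the window. PLOD1 and STC2 hold GCGTG but no ACGTG. Of the 33 genes 24 match a window of the table, and 15 of these 24 (62.5%) hold ACGTG, against 21.6% of all 27305 windows and 26.7% of the 11167 windows of tested genes. GCGTG stands in 14 of the 24 (58.3%), against 36.3% of all windows and 50.6% of those of tested genes, so its excess over tested genes is smaller. By call, ACGTG is found in 10 of 12 higher genes (83.3%), 1 of 3 lower genes and 4 of 9 genes that do not pass (44.4%). GCGTG is found in 7 of 12 higher genes (58.3%), 3 of 3 lower genes and 4 of 9 that do not pass. Either core thus stands in all 12 higher genes that have a window, all 3 such lower genes and 6 of 9 others (66.7%). Among windows of tested genes 63.0% hold either core, and among all windows 48.4%. Over both cores the shares in higher and lower genes are equal. The median GC content is 66.5% in the 24 windows and 65.3% in those of tested genes. These letters are a description of the window, and binding of HIF was not measured.

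Levels can be compared between genes in TPM, a measure of transcript abundance that accounts for length and library size. DDIT4 is the most abundant of the 33 with a mean of 286 TPM over all 6 libraries, followed by NDRG1 with 196 TPM and PLOD1 with 159 TPM. The groups differ within each of these 3 genes, and DDIT4, at 248 to 322 TPM over the libraries, does not overlap NDRG1, at 166 to 222 TPM, within either group, while NDRG1 and PLOD1 overlap in shControl. FAM162A follows with a mean of 99.1 TPM and WSB1 with 87.3 TPM, and these overlap in shControl as well. CA9 and CA12, at means of 6.01 and 3.33 TPM, rank low, and STC1 and LOX, at 0.16 and 0.157 TPM, are the lowest, with values that overlap over the 6 libraries. The 16 genes that are higher span this range from CA12 to DDIT4.

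**Figure D3:**
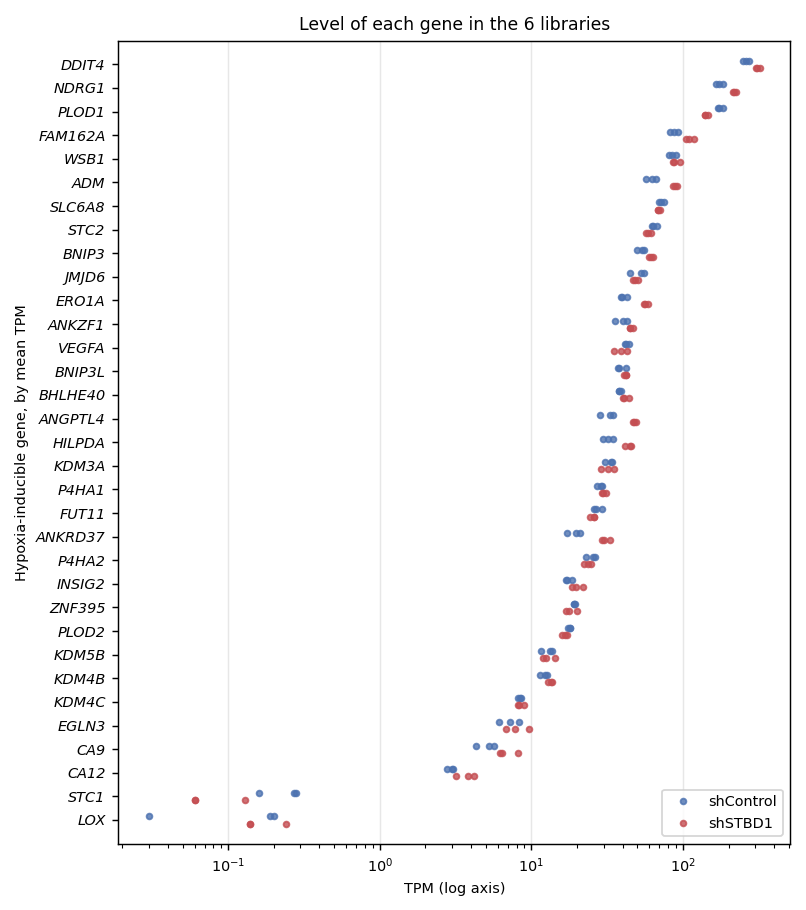
TPM on a log axis of each of the 33 genes in the 6 libraries, with 1 point per library, shControl beside shSTBD1 and genes ordered by their mean level. DDIT4 is highest with a mean of 286 TPM and LOX lowest with 0.157 TPM.

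Both carbonic anhydrases of the list rise, against 8.22% of all tested genes. CA9 and CA12 are membrane enzymes that turn carbon dioxide and water into bicarbonate and protons outside the cell and so help to hold the pH inside it. CA9 is at 5.25, 4.93 and 6.61 CPM in shControl replicates 1 to 3 and at 9.08, 7.08 and 7.61 CPM in shSTBD1 replicates 1 to 3. All 3 shSTBD1 libraries lie above all 3 shControl libraries, by the least between shSTBD1 replicate 2 and shControl replicate 3, and the log2 fold change is 0.50 (SE 0.137, adjusted p = 0.0193, edgeR). Without shControl replicate 2 the adjusted p of CA9 from edgeR is 0.0728 at a log2 fold change of 0.42, and without shSTBD1 replicate 1 it is 0.103 at 0.40. CA9 also shares 35.7% of its exon bases with ARHGEF39 on the opposite strand, whose own log2 fold change is 0.20 (adjusted p = 0.0522, edgeR). ARHGEF39 has a mean of 26.0 CPM over all 6 libraries, against 6.76 CPM for CA9. Reads of the pair cannot be told apart where counting ignored the strand, which the sources do not state. CA12 is at 9.92, 9.44 and 9.43 CPM in shControl and 13.2, 12.7 and 11.5 CPM in shSTBD1, again without overlap. Its log2 fold change is 0.38 (SE 0.0883, adjusted p = 0.00755, edgeR). With effective length in the fit neither CA9 nor CA12 passes, at 0.46 and 0.36 (adjusted p = 0.172 and 0.16, edgeR).

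Of the 5 genes of collagen and matrix, 0 are higher and 2 lower (edgeR), against 8.22% and 7.54% of all tested genes. In a list of 5 genes, 0 higher cannot be told apart from such a share. At an unadjusted p under 0.05 from edgeR 1 would be higher, and DESeq2 also calls 0 higher. Their products modify collagen: P4HA1 and P4HA2 hydroxylate its prolines, PLOD1 and PLOD2 its lysines, and LOX cross-links the finished fibres. PLOD1 is at 348, 323 and 324 CPM in shControl and 270.1, 269 and 267 CPM in shSTBD1. The lowest shControl library stands well above the highest shSTBD1 library, and PLOD1 falls with a log2 fold change of -0.30 (SE 0.0342, adjusted p = 1.26e-05, edgeR), the smallest adjusted p among the 4 lower genes. PLOD2 is at 53.2, 47.9 and 48.4 CPM in shControl and 43.2, 46.7 and 43.7 CPM in shSTBD1, close to each other, with a log2 fold change of -0.16 (SE 0.0525, adjusted p = 0.0464, edgeR). This call is fragile, since the adjusted p of PLOD2 from edgeR is 0.143 without shControl replicate 1, 0.0628 without shControl replicate 3, 0.151, 0.0542 and 0.151 without shSTBD1 replicates 1, 2 and 3, and between -0.11 and -0.20 in log2 fold change across these fits. P4HA1, at 59.8, 61.3 and 61.2 CPM in shControl and 61.9, 68.6 and 64.3 CPM in shSTBD1, separates the groups without passing (log2 fold change 0.10, 95% interval 0.002 to 0.191, adjusted p = 0.156, edgeR). P4HA2 overlaps between groups, at 39.4, 38.6 and 36.6 against 36.5, 38 and 36.6 CPM, with an interval of -0.151 to 0.063 on the log2 scale. LOX has only 2 to 19 reads per library, and its interval of -0.865 to 1.16 leaves its direction undetectable at this depth.

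All 3 genes of mitophagy and mitochondria rise, against 8.22% of all tested genes. BNIP3 and BNIP3L are receptors in the outer mitochondrial membrane that bind autophagy proteins of the LC3 and GABARAP families, and FAM162A is a mitochondrial protein tied to cell death in hypoxia. BNIP3 is at 92.2, 81.6 and 90.1 CPM in shControl and 99, 103 and 99.9 CPM in shSTBD1. The groups do not overlap, and the log2 fold change is 0.20 (SE 0.044, adjusted p = 0.00595, edgeR). With effective length in the fit BNIP3 has 0.23 and does not pass (adjusted p = 0.0658, edgeR). BNIP3L is at 84.7, 77.9 and 84.3 CPM in shControl and 97.4, 90.2 and 89.6 CPM in shSTBD1, also apart, with a log2 fold change of 0.17 (SE 0.0441, adjusted p = 0.017, edgeR). Without shControl replicate 2 the adjusted p of BNIP3L is 0.0768 at a log2 fold change of 0.13, and without shSTBD1 replicate 1 it is 0.107 at 0.13 (edgeR). Its groups overlap in TPM, and with effective length in the fit its log2 fold change is 0.11 (adjusted p = 0.40, edgeR). FAM162A shows the widest gap of the 3, at 56.1, 58.9 and 61.8 CPM in shControl and 72, 70.8 and 77.6 CPM in shSTBD1, and its log2 fold change of 0.32 (SE 0.0473, adjusted p = 2.23e-04, edgeR) keeps passing in every alternative.

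The 5 genes of the JmjC family, oxygen-dependent enzymes that remove methyl groups from histones or, for JMJD6, hydroxylate lysines, do not pass the test, and 4 of their 5 log2 fold changes are above 0. Of all tested genes 15.8% pass, and 0 of 5 cannot be told apart from that share. At an unadjusted p under 0.05 from edgeR 1 of the 5 passes, and DESeq2 calls 0. KDM4B comes closest, at 58.2, 50.1 and 55.6 CPM in shControl and 58.6, 61.2 and 62.2 CPM in shSTBD1, where the groups just separate (log2 fold change 0.15, SE 0.0523, adjusted p = 0.0565, edgeR). Without shControl replicate 1, its highest control library, KDM4B passes with 0.20 and an adjusted p of 0.00634 (edgeR). It also passes in edgeR with library size alone (adjusted p = 0.0399), without the count filter (0.0187), with at least 10 counts in every library (0.0478) and with the replicate block (0.0499), and in none of the other 11 alternatives. The intervals of the others are narrow: on the log2 scale KDM3A lies between -0.045 and 0.110, KDM4C between -0.090 and 0.189, KDM5B between -0.047 and 0.164, and JMJD6 between -0.134 and 0.065.

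**Figure D4:**
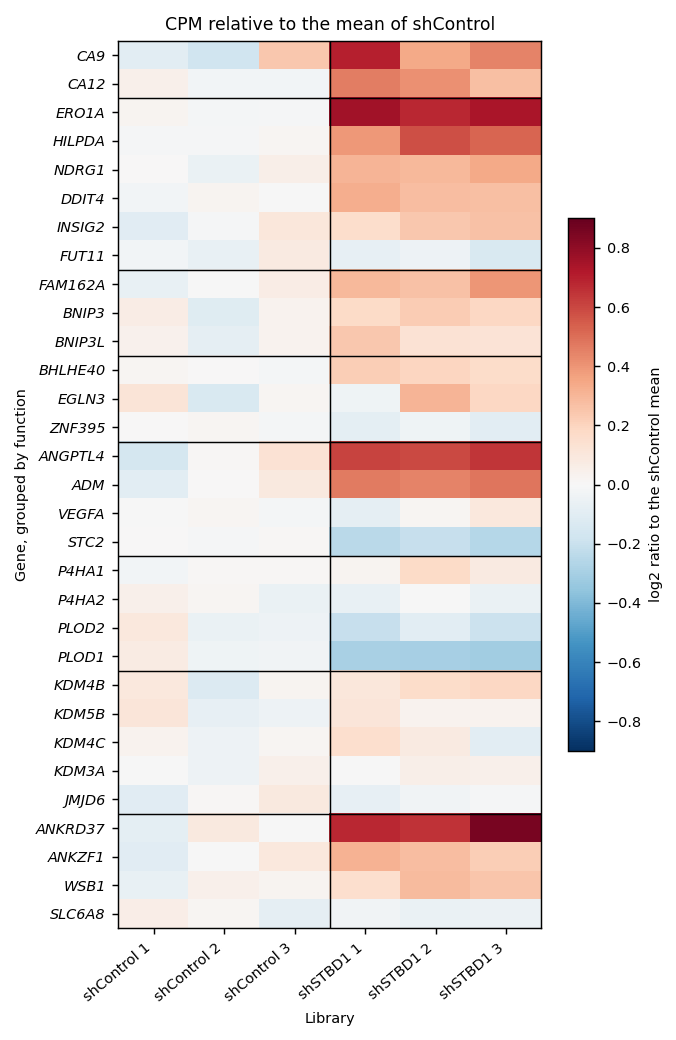
Log2 ratio of the CPM of each gene in each of the 6 libraries to its mean in shControl. Genes are grouped by function, without LOX and STC1, whose counts are low. ERO1A and ANKRD37 show the strongest split between the 3 shControl and 3 shSTBD1 columns, and the demethylase genes show little.

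The secreted factors divide. ADM encodes adrenomedullin, a peptide that widens and builds vessels, and stands at 58.2, 62.4 and 66.2 CPM in shControl and 86.2, 85 and 86.9 CPM in shSTBD1. Its shSTBD1 libraries lie close together and far above the control range, and the log2 fold change is 0.47 (SE 0.0447, adjusted p = 2.30e-06, edgeR). ANGPTL4, a secreted inhibitor of lipoprotein lipase, is at 37.6, 42.1 and 45.9 CPM in shControl and 63.7, 63.1 and 65.4 CPM in shSTBD1. Here too the gap is wide, with a log2 fold change of 0.62 (SE 0.0574, adjusted p = 1.83e-06, edgeR). VEGFA, the main growth factor of blood vessels and a standard HIF target, is at 79.2, 80.7 and 78.7 CPM in shControl and 75.3, 80.3 and 84.9 CPM in shSTBD1. The shSTBD1 libraries spread on both sides of the controls, and VEGFA has a log2 fold change of 0.01 with a 95% interval of -0.080 to 0.104 (adjusted p = 0.889, edgeR). With effective length in the fit, its value is -0.12, which also does not pass (adjusted p = 0.398, edgeR).

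The stanniocalcins STC1 and STC2, secreted glycoproteins that regulate calcium and phosphate, have lower values. STC2 is at 115, 114 and 116 CPM in shControl and 97.3, 99.7 and 96.3 CPM in shSTBD1, without overlap, and its log2 fold change is -0.23 (SE 0.0338, adjusted p = 1.70e-04, edgeR). RSEM's effective length of STC2 is 9.53% shorter in shSTBD1, and with that length in the fit the log2 fold change is -0.10 and no longer passes (adjusted p = 0.315, edgeR). STC1 rests on 12, 11 and 9 reads in shControl and 3, 4 and 4 in shSTBD1, and its log2 fold change of -1.56 has an interval of -2.53 to -0.59 (adjusted p = 0.0291, edgeR). Leaving out any 1 of the 6 libraries ends the STC1 call, with edgeR adjusted p-values of 0.0947, 0.0684 and 0.0645 without shControl replicates 1, 2 and 3 and of 0.10, 0.101 and 0.0842 without shSTBD1 replicates 1, 2 and 3.

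Of the genes of oxygen sensing and transcription, 1 of 3 passes, against 15.8% of all tested genes. BHLHE40, a repressor of the basic helix-loop-helix family, is at 99.8, 98.7 and 97.2 CPM in shControl and 115, 113 and 111 CPM in shSTBD1. All shSTBD1 libraries exceed all shControl libraries, with a log2 fold change of 0.19 (SE 0.0342, adjusted p = 9.98e-04, edgeR). With effective length in the fit BHLHE40 has 0.13 and does not pass (adjusted p = 0.173, edgeR). EGLN3, the prolyl hydroxylase that HIF itself induces, is at 14, 11.8 and 13.1 CPM in shControl and 12.6, 16 and 14.8 CPM in shSTBD1, and its groups overlap (log2 fold change 0.17, 95% interval -0.035 to 0.371, adjusted p = 0.261, edgeR). ZNF395, a zinc finger transcription factor, has a log2 fold change of -0.07 (95% interval -0.163 to 0.016, adjusted p = 0.263, edgeR) and shares 35.0% of its exon bases with FBXO16.

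The stress, lipid and endoplasmic reticulum genes rise in 5 of 6 cases, against 8.22% of all tested genes. The exception is FUT11, a fucosyltransferase, at -0.08 on the log2 scale (95% interval -0.195 to 0.028, adjusted p = 0.315, edgeR). ERO1A, the oxidase that supplies disulfide bonds in the endoplasmic reticulum, is at 102, 98.9 and 99.5 CPM in shControl and 169, 160.3 and 166 CPM in shSTBD1. No other gene of the 33 has so small an adjusted p: the log2 fold change is 0.72 (SE 0.0341, adjusted p = 1.25e-09, edgeR). The effective length of ERO1A rises by 15.59% in shSTBD1, and with it in the fit the log2 fold change is 0.50 (adjusted p = 8.87e-04, edgeR). In TPM, which use that length, ERO1A is at 38.9, 42.9 and 39.7 in shControl and 58.4, 55.5 and 56.7 in shSTBD1, still apart.

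DDIT4, an inhibitor of the growth kinase mTORC1 induced by many stresses, is at 312, 323 and 317 CPM in shControl and 397, 386 and 383 CPM in shSTBD1. It has the smallest standard error of the 33 genes, with a log2 fold change of 0.29 (SE 0.0308, adjusted p = 6.56e-06, edgeR). NDRG1, a stress-induced protein linked to differentiation of colon epithelium, is at 343, 328 and 355 CPM in shControl and 423, 417 and 432 CPM in shSTBD1. Its groups are apart as well, with a log2 fold change of 0.31 (SE 0.0339, adjusted p = 8.83e-06, edgeR). HILPDA, a lipid droplet protein that inhibits the breakdown of triglycerides, is at 25.2, 25.1 and 25.7 CPM in shControl and 33.2, 37.9 and 36.4 CPM in shSTBD1. The 3 control values nearly coincide, and HILPDA has a log2 fold change of 0.50 (SE 0.0594, adjusted p = 2.03e-05, edgeR). INSIG2, which holds back the activation of sterol synthesis, is at 24.3, 26 and 28.1 CPM in shControl and 29.2, 30.9 and 31.4 CPM in shSTBD1, the lowest shSTBD1 library lying only just above the highest control (log2 fold change 0.23, SE 0.0624, adjusted p = 0.0218, edgeR). The edgeR adjusted p of INSIG2 is 0.0650 and 0.0521 without shControl replicates 1 and 2. Without shSTBD1 replicates 2 and 3 it is 0.0871 and 0.0911. The log2 fold changes of these fits run from 0.18 to 0.22. INSIG2 also does not pass in DESeq2 (adjusted p = 0.0578, DESeq2) or with effective length in the fit (0.20, adjusted p = 0.23, edgeR). It passes in 8 of the 16 alternatives.

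Of the last 4 genes 3 rise, against 8.22% of all tested genes. ANKRD37, a small ankyrin repeat protein, is at 12.5, 14.1 and 13.2 CPM in shControl and 21.3, 20.8 and 24 CPM in shSTBD1. The lowest shSTBD1 library is far above the highest control, and the log2 fold change is 0.73 (SE 0.078, adjusted p = 7.47e-06, edgeR). It shares 40.3% of its exon bases with UFSP2 on the opposite strand, whose own log2 fold change is -0.02 (adjusted p = 0.851, edgeR). UFSP2 has a mean of 23.3 CPM over all 6 libraries, against 17.6 CPM for ANKRD37. As for CA9, reads of this pair cannot be told apart where counting ignored the strand. ANKZF1, which helps to rescue stalled ribosomes, is at 50.9, 54.4 and 58.4 CPM in shControl and 67.8, 66.2 and 63.6 CPM in shSTBD1. The groups are apart (log2 fold change 0.27, SE 0.0497, adjusted p = 0.00134, edgeR). With effective length in the fit ANKZF1 has 0.20 and does not pass (adjusted p = 0.136, edgeR). WSB1, the substrate subunit of a ubiquitin ligase, is at 89.9, 97.1 and 95.9 CPM in shControl and 105, 115 and 112 CPM in shSTBD1, with a log2 fold change of 0.23 (SE 0.0424, adjusted p = 0.00138, edgeR). Its effective length is 9.8% longer in shSTBD1, and with length in the fit WSB1 has 0.08 and does not pass (adjusted p = 0.459, edgeR). SLC6A8, the creatine transporter, is at 142, 138 and 129 CPM in shControl and 133, 131 and 131 CPM in shSTBD1, with overlapping groups and a 95% interval of -0.126 to 0.032.

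A stretch of 7 bases of the control hairpin, GTGTCAC, stands in the 3′ UTR of 5 of the 33 genes (15.2%), which are ADM, ERO1A and INSIG2, all higher, and ZNF395 and KDM5B, which do not pass. Among 13086 tested genes with a canonical 3′ UTR the share is 9.78%, among the higher ones 19.2% and among the lower ones 9.59%. Of the 1280 tested genes that hold the match, 237 are higher and 107 lower. Without the 5 listed genes, 17 of the remaining 28 pass, 13 higher and 4 lower. Among all tested genes, with or without the match, 15.8% pass, 8.22% as higher and 7.54% as lower. The median log2 fold change of the 28 is 0.16. The part of this match in the results was not tested further.

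Of 12 subunits and sensors of HIF 11 are tested, with 1 higher (9.09%, against 8.22% of all tested genes) and 3 lower (27.3%, against 7.54%) and a median log2 fold change of -0.03. EPAS1, one of the alpha subunits, is higher with a log2 fold change of 0.27 (adjusted p = 3.33e-04, edgeR). VHL, which marks the alpha subunits for destruction, is lower with -0.25 (adjusted p = 4.39e-04, edgeR). The coactivators EP300 and CREBBP are lower with -0.20 and -0.16 (adjusted p = 0.00383 and 0.00732, edgeR). With effective length in the fit these 4 calls end, with 0.23 for EPAS1, -0.21 for VHL, -0.31 for EP300 and -0.05 for CREBBP (adjusted p = 0.186, 0.089, 0.16 and 0.882, edgeR), and limma on TPM ends them as well. The mRNA of HIF1A, whose protein is controlled mainly by its stability, is not among those that pass and is named after its values were seen, at 180.8, 174 and 169.5 CPM in shControl and 184, 177 and 178 CPM in shSTBD1.

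Of 26 HIF targets of glucose metabolism, 8 are higher (30.8%, against 8.22% of all tested genes) and 4 lower (15.4%, against 7.54%), with a median log2 fold change of 0.035, against 0.17 for the 33 genes outside glucose metabolism. The largest values are -0.50 for SLC2A3 and -0.28 for SLC2A1, both glucose transporters (adjusted p = 0.0302 and 6.29e-06, edgeR), and 0.40 for ENO2 and 0.35 for PDK3, an enolase and a kinase of pyruvate dehydrogenase (adjusted p = 1.91e-05 and 0.0125, edgeR). SLC2A1 and ENO2 pass in all 16 alternatives, SLC2A3 in 9 and PDK3 in 11. With effective length in the fit 2 of the 8 higher and 2 of the 4 lower genes still pass. In that fit 3.28% of all tested genes pass in either direction. SLC2A3 then has -0.49 and PDK3 0.34 (adjusted p = 0.147 and 0.161, edgeR). SLC2A3 also has edgeR adjusted p-values of 0.0656 and 0.0594 without shControl replicates 1 and 3 and of 0.123 and 0.101 without shSTBD1 replicates 1 and 2, and PDK3 has 0.0558 without shControl replicate 3 and 0.0865 without shSTBD1 replicate 2. The difference between these lists was not tested. Of 16 genes of the amino acid and endoplasmic reticulum stress response, which can induce DDIT4 as well, 15 are tested, 0 are higher (against 8.22% of all tested genes) and 7 lower (46.7%, against 7.54%, edgeR), with a median of -0.14. DESeq2 also calls 0 higher and 7 lower, and at an unadjusted p under 0.05 from edgeR 0 are higher and 9 lower. SLC7A11, CHAC1, ASNS and PCK2 have the largest decreases, at -0.69, -0.64, -0.59 and -0.54 (adjusted p = 6.72e-08, 1.74e-04, 1.29e-08 and 6.72e-06, edgeR). Of the endoplasmic reticulum genes of this list, XBP1 is lower with -0.19 (adjusted p = 0.0091, edgeR). HSPA5, HERPUD1 and DNAJB9 do not pass, at -0.04, 0.07 and 0.05, and are named after their values were seen, as is XBP1. With effective length in the fit 6 of the 7 lower genes pass, all but XBP1 (adjusted p = 0.131, edgeR).

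**Figure D5:**
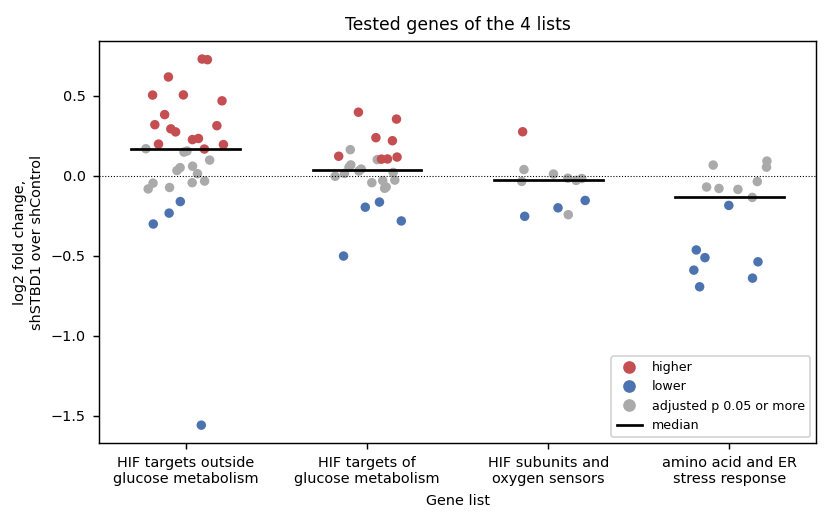
Log2 fold changes of the tested genes of 4 lists, shSTBD1 against shControl: the 33 genes described, HIF targets of glucose metabolism, HIF subunits and oxygen sensors, and stress response genes, with 1 point per gene and a line at each median. Medians are 0.17, 0.035, -0.03 and -0.14 in this order.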

How the data were processed

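RNA of HCT116 cells was sequenced as paired ends in 3 shControl and 3 shSTBD1 libraries, grouped by their labels. The authors aligned reads to hg38 with STAR 2.7.1a and Ensembl gene models and estimated abundance with RSEM 1.3.1, per their methods and the submitters' processing notes. For each library the authors deposited each gene's expected count from RSEM, an estimate without normalization. The TPM values deposited by the authors are scaled for effective length and library. Other columns deposited by the authors, namely effective lengths and posterior standard deviations from RSEM, served as checks. Strand use in counting is not given in the sources used here.

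Expected counts were rounded, filtered by filterByExpr, scaled by TMM and tested by edgeR's quasi-likelihood test (edgeR 4.0.16, R 4.3.3), with Benjamini-Hochberg adjustment over 15566 tested genes and a threshold of 0.05. Standard errors were computed from fold change and F statistic. Of 58395 genes, 57754 matched a symbol. Gene positions follow GRCh38 with a later GENCODE annotation, and promoter windows come from RefSeq. The posterior standard deviation stayed under 5% of the count for all 33 genes.

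The genes and lists were chosen with earlier results of these data known, including the 7 bases sought in 3′ UTRs. Named are all 33 genes. Of the lists of HIF subunits, glucose targets and stress genes, at most 4 genes that pass are named, by absolute log2 fold change. HIF1A and the endoplasmic reticulum genes XBP1, HSPA5, HERPUD1 and DNAJB9 are named beyond this rule, after their values were seen. Alternatives were DESeq2 1.42.0, 3 other scalings, 2 other filters, effective-length offsets, the replicate number as a block, limma 3.58.1 on log2(TPM + 1) or log2(TPM + 0.1), and fits without each library in turn. The main edgeR fit and the DESeq2 fit were tested on simulated counts, and the other alternatives were not.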

Additional observations from a re-analysis of the deposited data

How the results depend on the processing

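Against 2453 genes that pass among all tested genes and 20 among the 33, effective-length offsets give 511 and 9, limma on log2(TPM + 1) gives 292 and 9, and limma on log2(TPM + 0.1) gives 290 and 9, with 8 higher and 1 lower each time. Leaving out 1 library gives 1409 to 2577 and 16 to 18. The median log2 fold change of the 33 genes, 0.166, is 0.131 with offsets for effective length, 0.096 and 0.12 with limma (1 and 0.1 added to TPM), and 0.127 to 0.197 with a library left out. With DESeq2, 1693 genes pass, 17 of them among the 33. In the scaling and count-filter alternatives 20 of the 33 pass, with 16 or 17 higher. The filter of at least 10 counts in every library leaves 31 of the 33 to test, without LOX and STC1. Scaling moves the median of all genes by at most 0.0127. Libraries with the same replicate number deviate from their group means with correlations of 0.0708, 0.0676 and -0.0084 for replicates 1 to 3. For libraries with different numbers the values run from -0.0741 to 0.0101, below those of replicates 1 and 2. The number is not taken as a pairing, since the methods name none. The replicate block gives 2579 genes, 20 among the 33 (17 higher, 3 lower) and a median of 0.167. Signs turn only in genes that do not pass: VEGFA has -0.118 with offsets for effective length, -0.129 and -0.132 with limma (1 and 0.1 added to TPM), and -0.03 to 0.051 when a library is left out, lowest without shSTBD1 replicate 3. KDM3A has -0.024, -0.037 and -0.038 in the first 3 of these fits. With a library left out LOX has -0.302 (without shControl replicate 3) to 0.456 and is also below 0 without shSTBD1 replicate 2 (-0.119), KDM4C has -0.004 (without shSTBD1 replicate 1) to 0.115, and JMJD6 has -0.084 to 0.009 (without shControl replicate 3). The cause of these shifts was not tested. Without the 5 genes that hold the control hairpin match, an alternative chosen after seeing the data, 17 of the remaining 28 pass. Of all tested genes, with or without the match, 15.8% pass. LOX and STC1, with under 20 reads per library, are limited by depth.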
